A study of Mus musculus with 4 samples.

Results

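The adventitia is the outer coat of an artery, a sleeve of loose connective tissue whose fibroblasts deposit collagen and whose perivascular niche holds cells with progenitor properties. In mouse arteries such fibroblasts are commonly recognised by Cd34, a surface sialomucin, by Ly6a, which encodes the stem cell antigen Sca-1, and by Pi16 and Dpp4, which mark a fibroblast state found around vessels of many organs. None of these genes is private to that cell type, since Cd34 is also a classical marker of endothelium and blood progenitors and Anpep is carried by myeloid cells. The set described here has 10 named genes: Cd34, Dpt, Pi16, Ly6a, Clec3b, Gsn, Dpp4, Tcf21, Serpinf1 and Anpep. Of these, 9 had a row annotated with that symbol alone, 1 row each, among 22180 genes. Ly6a had none and was not analysed here. The list was chosen by its members' known roles with the log2 differences of these same arrays already in view, so those differences are described without a test.

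RNA came from primary vascular smooth muscle cells (VSMCs) of mouse thoracic aorta, freed of the adventitia before enzymatic dispersal and grown for 5 days in medium with 10% serum. Every mouse carried floxed Mmp14 alleles and lacked Apoe, and all were kept on a Western diet for 3 months. Mmp14 encodes MT1-MMP, a membrane-bound collagenase. The 2 knockout arrays were of SM22α-Cre(+)Mmp14(fl/fl)Apoe(−/−) cells and the 2 control arrays of SM22α-Cre(−)Mmp14(fl/fl)Apoe(−/−) cells. Cre was driven from the SM22α promoter, active in smooth muscle, so other cells in a culture need not have lost Mmp14. Ages were not given in the sources used here. The design text speaks of 2 independent mouse pairs, and whether the title numbers mark those pairs is not stated. The number of arrays, 2 against 2, limits the precision of every value below.

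Values are log2 expression after RMA, a normalisation that summarises the probes of a transcript into 1 number per array. Mmp14 read 8.71 and 9.05 in control cells and 8.27 and 8.19 in knockout cells, so the label check went in the labelled direction, although probes outside the floxed exons can contribute. Acta2, smooth muscle alpha actin, lay between 10.9 and 11.4 on all 4 arrays, and all 9 smooth muscle markers on the list passed the filter. Genes whose mean reached 3.02, the median of all row means, were tested, 12550 in all. The limma fit called 0 of them (0%) at an adjusted p under 0.05, with 1465 at an unadjusted p under 0.05. Among the markers, 6 passed this filter and 0 were called. Over all tested genes the knockout arrays lay wholly below the controls for 27.5% and wholly above for 16.7%, and the knockout mean was the higher for 41.7% and the lower for 58.3%.

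The markers did not share a direction. Cd34 and Dpt were lower on both knockout arrays than on both controls, Anpep and Serpinf1 were higher on both, Gsn and Tcf21 overlapped, and Pi16, Clec3b and Dpp4 were dim on every array. Of the 6 tested markers, 3 had a higher and 3 a lower knockout mean, and their median log2 difference, knockout minus control, was -0.05, as it was over all tested genes. The 3 dim markers, which were not tested, had differences between 0.04 and 0.06, and with them the median over the 9 was 0.05. Since all 9 come from bulk RNA, fewer cells of a type and less RNA per cell cannot be told apart.

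**Figure D1:**
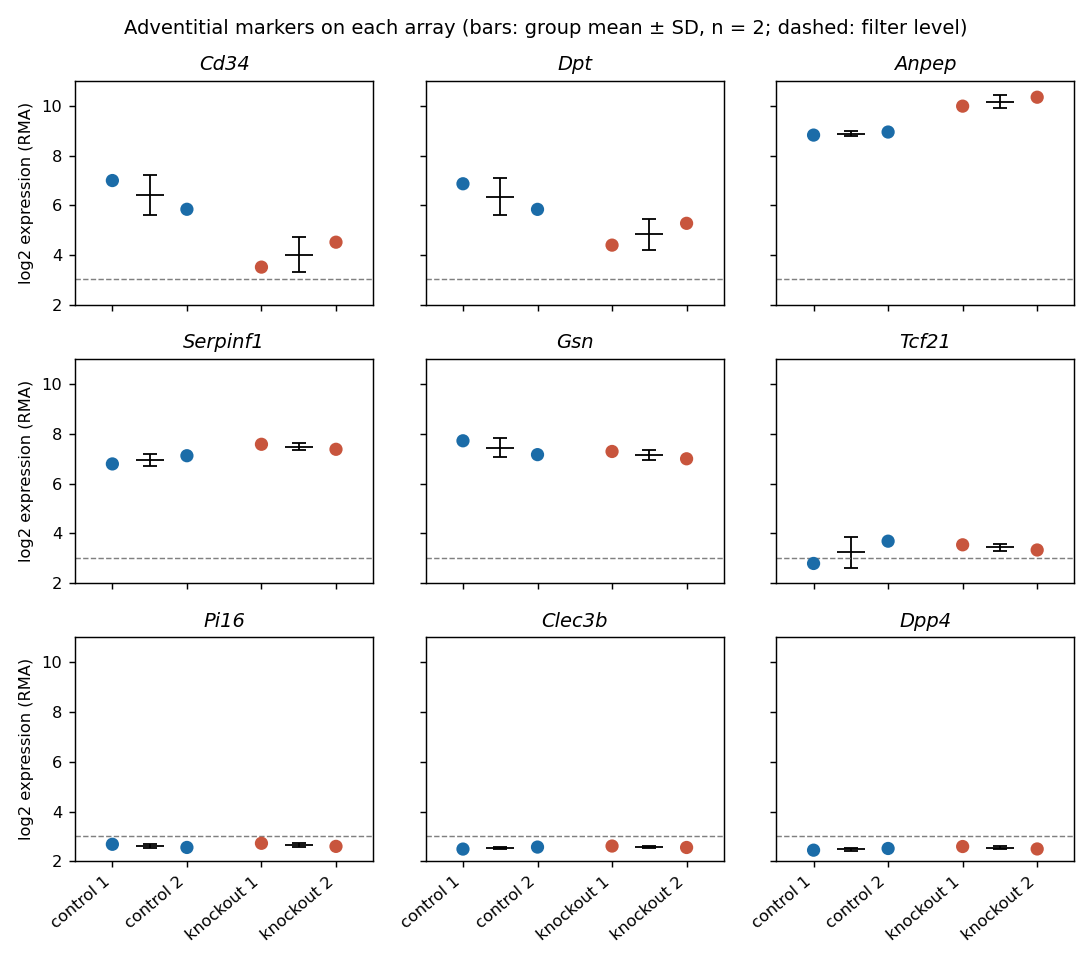
Log2 expression (y axis) of the 9 markers on the 2 control arrays (blue) and the 2 knockout arrays (red), 1 panel per gene, with group means ± SD (n = 2) and the filter level of 3.02 dashed. Cd34 and Dpt sit lower in the knockouts, Anpep and Serpinf1 higher, and Pi16, Clec3b and Dpp4 stay under the dashed line.

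Pi16, Clec3b and Dpp4, which are among the most widely used markers of the adventitial fibroblast state, stayed under the filter level on 4 of 4 arrays. Pi16, a secreted or membrane-bound protein of the CAP family, read 2.68 and 2.56 in control cells and 2.72 and 2.60 in knockout cells. Clec3b, which encodes the plasminogen-binding lectin tetranectin, read 2.49 and 2.57 against 2.61 and 2.56. Dpp4, the serine exopeptidase CD26, read 2.45 and 2.52 against 2.59 and 2.50. For each of these the groups overlapped, and background was not measured. Other genes known from adventitial fibroblasts mostly passed the filter: of the 19 with a row on the wider list given further on, 18 did. Over the whole series 12550 of 22180 genes passed it. On that list Mfap5, a microfibril protein, read 9.78 to 10.3 and Igfbp6, an IGF-binding protein, 6.29 to 7.24. Has1 read 2.88 to 3.75, and Scara5, the 1 gene below the filter level, 2.28 to 2.73. The cell source of the values was not tested, and the set is called by its genes from here on.

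Cd34 showed the largest difference of the set. It read 7.0 and 5.84 in control cells and 3.52 and 4.52 in knockout cells. Both knockout arrays were below both controls, and control replicate 1 was the highest and knockout replicate 1 the lowest. The group means were 6.42 ± 0.82 and 4.02 ± 0.71 (SD, n = 2 each), which puts the log2 difference at -2.40 (SE 0.51), or 5.29 times more in the controls. Ordered from the lowest difference, Cd34 was number 17 of 12550. Arrays of 1 group differed by 1.16 in the controls and by 1.00 in the knockouts, and the difference ran from -2.98 to -1.82 when single arrays were left out.

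Dpt followed the same order of arrays. It encodes dermatopontin, a small matrix protein that binds decorin and promotes collagen fibril assembly. The controls read 6.87 and 5.84 and the knockouts 4.40 and 5.28. The groups did not overlap, but control replicate 2 and knockout replicate 2 were only 0.56 apart. The means were 6.35 ± 0.73 and 4.84 ± 0.62 (SD, n = 2 each), which puts the difference at -1.51 (SE 0.46), and without control replicate 1 it was -1.0. Expression from control replicate 1 down through control replicate 2 and knockout replicate 2 to knockout replicate 1 was an order that Cd34 and Dpt shared with 7.80% of the tested genes.

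Because Cd34 and Dpt were low on the same arrays, the 250 bases before each RefSeq start site are shown (build GRCm38.p6, + strand, Cd34 at chr1:194938571-194938820 and Dpt at chr1:164796413-164796662), with matches to 4 short motifs in capitals.
Cd34: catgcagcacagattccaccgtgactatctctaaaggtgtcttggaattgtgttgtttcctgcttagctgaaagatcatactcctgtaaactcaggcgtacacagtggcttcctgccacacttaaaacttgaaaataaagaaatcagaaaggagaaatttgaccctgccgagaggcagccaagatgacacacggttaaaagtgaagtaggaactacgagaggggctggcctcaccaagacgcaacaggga
Dpt: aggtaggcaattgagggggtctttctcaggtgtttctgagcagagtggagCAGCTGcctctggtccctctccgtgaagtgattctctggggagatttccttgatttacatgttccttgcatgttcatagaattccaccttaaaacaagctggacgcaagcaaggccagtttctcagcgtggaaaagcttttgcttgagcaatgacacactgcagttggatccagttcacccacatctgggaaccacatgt
The motifs searched on both strands were TATAAA, the TATA box, GGGCGG, the GC box bound by Sp1 family factors, CAGCTG, an E-box of the kind bound by basic helix-loop-helix factors such as Tcf21, and CATTCC, the core bound by TEAD factors. The Dpt window held CAGCTG once, its first base 200 bases before the start site. The Cd34 window held none of the 4. Of 32851 windows of this length, 12.4% held TATAAA, 32.7% GGGCGG, 13.0% CAGCTG and 12.6% CATTCC. GC content was 46.4% for Cd34 and 48.8% for Dpt, beside a median of 52.4%. A match is a description of the letters only.

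Genes with the nearest pattern to Cd34 were found by the Euclidean distance between array values, each gene centred on its own mean over the 4 arrays. The 3 nearest were Emcn, an endothelial sialomucin (distance 0.36), Cdh5, which encodes VE-cadherin (0.49), and Tll1, a tolloid-like metalloproteinase (0.59). Emcn read 9.29 and 8.13 in control cells and 5.98 and 6.48 in knockout cells, and Cdh5 read 8.72 and 6.97 against 5.0 and 5.68. Dpt was 0.90 away from Cd34, with 12 other tested genes nearer. The 3 genes nearest to Dpt were Car2, a carbonic anhydrase (0.28), Gucy1b1, a subunit of the nitric oxide receptor guanylate cyclase (0.41), and Cish, a suppressor of cytokine signalling (0.43). Cd34 ranked behind 74 other genes in nearness to Dpt.

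Endothelial markers were mostly lower on the same arrays as Cd34 and Dpt. Of 14 markers on the list, 12 were tested, 9 had a lower knockout mean and 3 a higher one, and the median difference was -0.65. The knockout arrays lay wholly below the controls for 9 and wholly above for 1, beside 27.5% and 16.7% of all tested genes. The mean log2 level over the 14 was 4.91 and 4.63 on the control arrays, against 3.78 and 3.87 on the knockout arrays. Ptprb, the vascular endothelial phosphatase, differed by -2.88 (SE 0.16), Cdh5 by -2.51 (SE 0.63), Pecam1, the adhesion molecule CD31, by -2.49 (SE 0.18) and Emcn by -2.48 (SE 0.43). The 3 with a higher knockout mean were Kdr at 0.32 (SE 0.18), Vwf at 0.29 (SE 0.36) and Flt1 at 0.10 (SE 0.36). Both knockouts were above both controls for Kdr, and the groups overlapped for Vwf and Flt1. Tek and Cldn5 lay below the filter level. The part of endothelial RNA in the Cd34 and Dpt values was not tested.

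**Figure D2:**
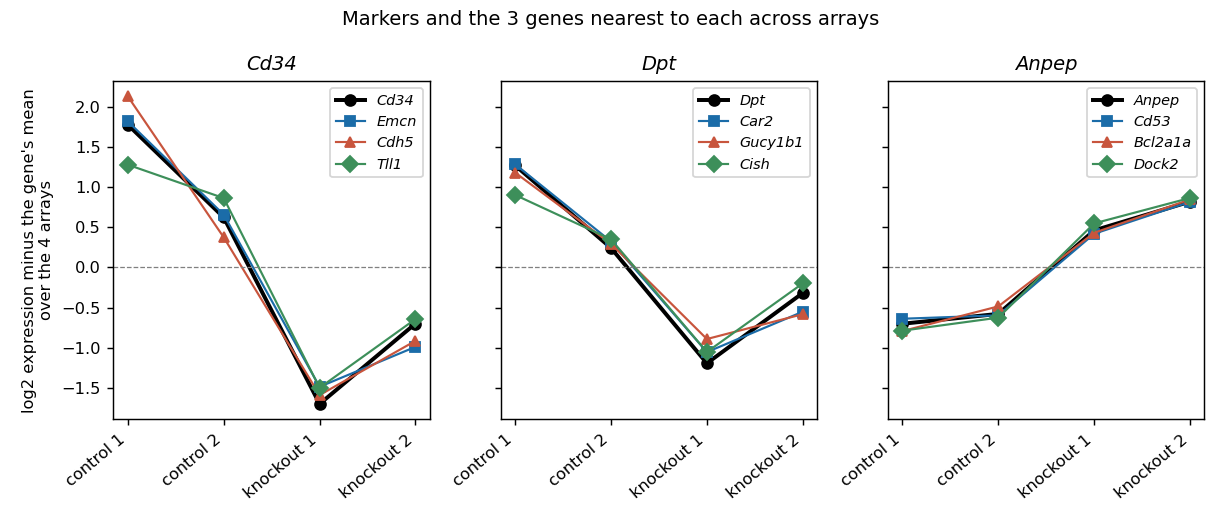
Log2 expression of Cd34, Dpt and Anpep (black) and of the 3 genes nearest to each (coloured) on the 4 arrays, each gene centred on its own mean; lines join arrays only to guide the eye. Cd34, Emcn and Cdh5 are highest on control replicate 1, and Anpep, Cd53 and Dock2 on knockout replicate 2.

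Anpep, which encodes aminopeptidase N or CD13, a membrane peptidase of fibroblasts, pericytes and myeloid cells, was the marker with the largest positive difference. It read 8.83 and 8.95 in control cells and 9.99 and 10.3 in knockout cells. Both knockouts were above both controls, and the arrays of a group lay closer together than for Cd34 or Dpt. The means were 8.89 ± 0.09 and 10.2 ± 0.25 (SD, n = 2 each), which puts the difference at 1.28 (SE 0.18), or 2.43-fold, with a range of 1.10 to 1.46 over the sets of 3 arrays. From the highest difference down, Anpep was number 116 of the 12550 genes.

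The promoter of Anpep is printed as that of the marker with the largest positive difference (RefSeq, GRCm38.p6, - strand, chr7:79848211-79848460, read in the direction of the gene, motifs in capitals).
Anpep: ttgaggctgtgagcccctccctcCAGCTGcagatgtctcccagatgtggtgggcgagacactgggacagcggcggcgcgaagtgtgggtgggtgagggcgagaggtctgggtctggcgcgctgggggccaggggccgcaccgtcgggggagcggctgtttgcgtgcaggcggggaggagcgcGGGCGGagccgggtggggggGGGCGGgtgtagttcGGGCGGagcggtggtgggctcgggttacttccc
It held GGGCGG 3 times, with first bases 68, 48 and 33 bases before the start site, and CAGCTG once, 227 bases before it. Its GC content was 72.8%. Serpinf1, also higher on both knockout arrays, held none of the motifs in its window, which had 51.6% GC. Gsn, with a lower knockout mean, held GGGCGG in each of its windows, at 56% to 60.8% GC. Whether the letters go with the direction of a difference was not tested. An array value sums over a transcript and does not tell which start site was used.

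The 3 genes nearest to Anpep were Cd53, a tetraspanin of leukocytes (distance 0.08), Bcl2a1a, a member of the BCL2 family (0.14), and Dock2, a guanine exchange factor of blood cells (0.14). Bcl2a1a has near-identical copies, so its row can hold signal from them. Cd53 read 8.49 and 8.53 in control cells and 9.55 and 9.95 in knockout cells. All 14 macrophage markers on the list were tested, 14 had a higher knockout mean, and for 13 the knockout arrays lay wholly above the controls. Over all tested genes these shares were 41.7% and 16.7%. The mean log2 level over these 14 was 6.91 and 6.93 on the control arrays, against 8.04 and 8.33 on the knockout arrays. Mrc1, the mannose receptor, differed by 2.08 (SE 0.38), Ptprc, the leukocyte antigen CD45, by 1.75 (SE 0.16), Adgre1, which encodes F4/80, by 1.74 (SE 0.17) and Trem2, a lipid-sensing receptor, by 1.57 (SE 0.24). No macrophage marker lay below the filter level. The part of macrophage RNA in the Anpep value was not tested.

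Serpinf1, which encodes the secreted anti-angiogenic serpin PEDF, read 6.79 and 7.12 in control cells and 7.58 and 7.38 in knockout cells. The groups did not overlap, and the nearest arrays of the 2 groups were 0.26 apart. The means were 6.96 ± 0.23 and 7.48 ± 0.14 (SD, n = 2 each), which puts the difference at 0.52 (SE 0.18), or 1.44-fold, number 764 from the highest. It ran from 0.36 without control replicate 1 to 0.69 without control replicate 2.

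Gsn and Tcf21 did not separate the groups. Gsn encodes gelsolin, which severs and caps actin filaments and exists as a cytoplasmic and a secreted form that 1 row cannot tell apart. It read 7.72 and 7.17 in control cells and 7.29 and 7.0 in knockout cells, with a difference of -0.30 (SE 0.24) that was -0.02 without control replicate 1 and -0.58 without control replicate 2. Tcf21, a basic helix-loop-helix factor of fibroblast precursors, read 2.79 and 3.69 against 3.54 and 3.33. Control replicate 1 was below the filter level and control replicate 2 the highest of the 4. The difference of 0.20 (SE 0.33) turned to -0.25 without control replicate 1.

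**Figure D3:**
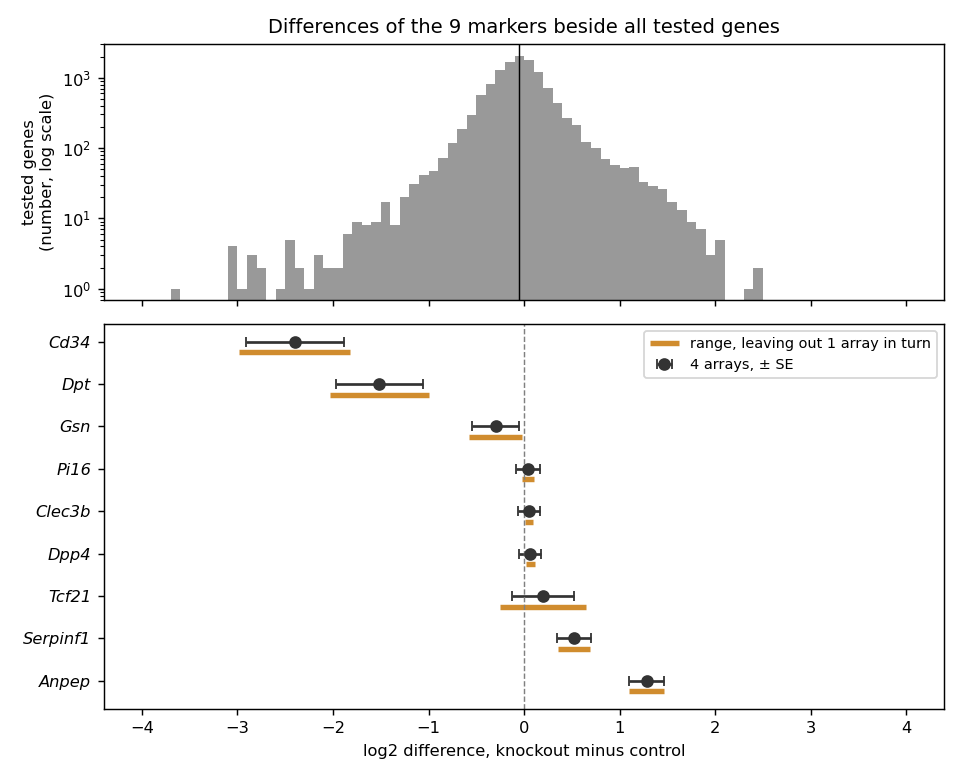
Log2 difference, knockout minus control (x axis), as a histogram over the 12550 tested genes (top, number of genes on a log axis, black line at the median of -0.05) and for the 9 markers (bottom, points ± SE, orange bars for the range when 1 array is left out). Cd34 and Dpt lie in the lower tail, Anpep in the upper, and the orange bar of Tcf21 crosses 0.

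Other genes of the adventitial fibroblast state were read from a wider list that holds none of the 10 markers. Of 18 tested members, 6 had a higher and 12 a lower knockout mean, 0 were called in either direction, and the median difference was -0.34, or -0.14 without control replicate 2. For 9 the knockout arrays lay wholly below the controls and for 4 wholly above, beside 27.5% and 16.7% of all tested genes. Procr, the endothelial protein C receptor, which also marks stem-like cells, read 8.02 and 6.79 in control cells and 5.76 and 6.05 in knockout cells, with a difference of -1.50 (SE 0.43). Heg1, a mucin-like receptor, differed by -1.12 (SE 0.43), Cd55, an inhibitor of complement activation, by -0.98 (SE 0.26) and Sema3c, a secreted guidance factor, by -0.87 (SE 0.37). Procr and Heg1 are also known from endothelium.

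Genes that fibroblasts of most tissues share went both ways. Of 19 tested members of that list, 9 were higher and 10 lower, 0 were called, and for 15 the groups overlapped. The knockout arrays lay wholly above the controls for 3 and wholly below for 1, beside 16.7% and 27.5% of all tested genes. The median of -0.01 was 0.32 without control replicate 2 and -0.23 without control replicate 1. Col3a1, a fibrillar collagen chain, read 5.45 and 5.40 in control cells and 7.0 and 6.22 in knockout cells, with a difference of 1.18 (SE 0.29). Col1a1 and Col1a2, the chains of type I collagen, differed by 0.29 (SE 0.13) and 0.24 (SE 0.13). Cxcl12, a stromal chemokine, differed by -1.07 (SE 0.35).

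Genes of adventitial progenitors and of hedgehog signalling, the pathway that marks Gli1 cells around vessels, had 9 tested members, 1 higher and 8 lower, with 0 called and a median of -0.30 (-0.15 without control replicate 1, -0.14 with its dim members added). Klf4, a pluripotency factor that also acts in smooth muscle, differed by -0.78 (SE 0.26), Eng, the TGF-beta co-receptor endoglin, by -0.69 (SE 0.21), and the hedgehog receptor Ptch1 and its partner Smo by -0.41 (SE 0.22) and -0.41 (SE 0.23). Gli1, Gli2, Shh and Kit were among the 6 members below the filter level. The list of Tcf21 partners and of genes of fibromyocytes, fibroblast-like cells derived from smooth muscle in plaques, had 12 tested members, 1 higher and 11 lower, with 0 called and a median of -0.40 (-0.20 without control replicate 2). Tnfrsf11b, which encodes osteoprotegerin, differed by -1.52 (SE 0.24), the adhesion molecule Vcam1 by -1.20 (SE 0.18), fibronectin (Fn1) by -0.56 (SE 0.20) and the T-box factor Tbx18 by -0.43 (SE 0.20). Beside the 8 of 9 and 11 of 12 lower members of these 2 lists, 58.3% of all tested genes had a lower knockout mean. Macrophage and endothelial markers differed between the same groups, as given above, and their part in these lists was not tested.

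Close relatives of the markers had a median difference of 0.00, with 11 of 21 tested members higher, 10 lower and 0 called. Erap1, an aminopeptidase of the same family as Anpep that trims antigenic peptides, differed by 0.87 (SE 0.16). Podxl, a sialomucin related to Cd34, differed by -0.62 (SE 0.31), Capg, a gelsolin relative, by 0.40 (SE 0.18) and Dpp9, a cytosolic relative of Dpp4, by -0.37 (SE 0.20). Signs were mixed against those of the relatives in the set. Erap1 and Podxl had the sign of Anpep and Cd34, and Capg and Dpp9 the sign opposite to Gsn and to the dim Dpp4. Gsn and Dpp4 themselves overlapped between groups. Other relatives differed in this: Fap at 0.32 (SE 0.13) had the sign of Dpp4 and Flii at -0.135 (SE 0.14) that of Gsn. Npepps at -0.01 (SE 0.13) had the sign opposite to Anpep.

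**Figure D4:**
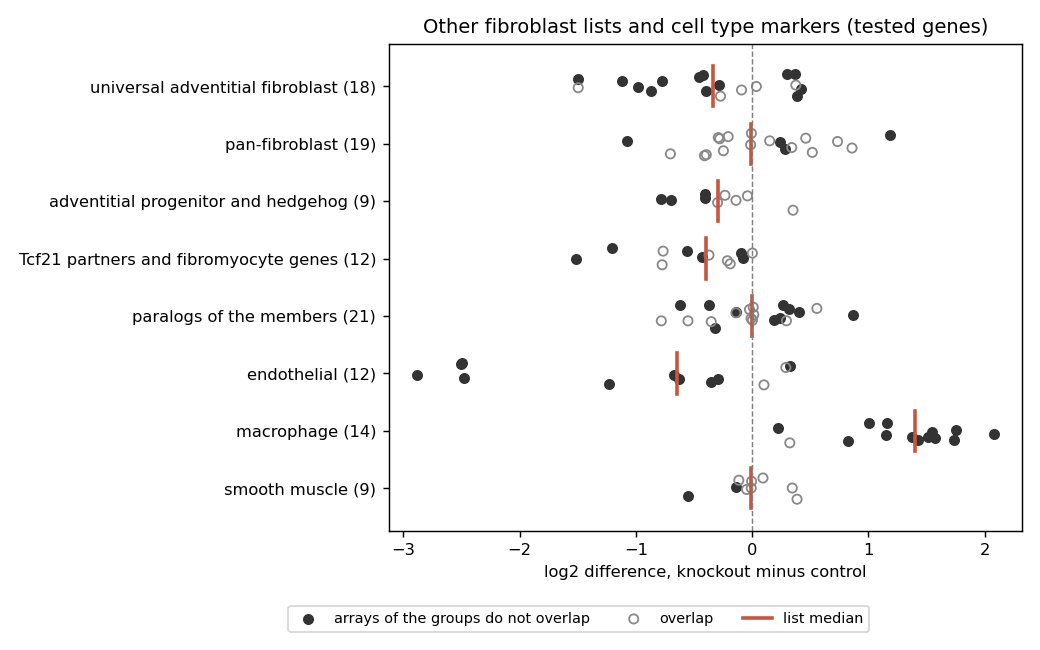
Log2 difference, knockout minus control (x axis), of each tested gene in the 5 wider lists and 3 cell type marker lists (rows, number of tested genes in brackets). Filled points are genes whose groups do not overlap, open points those that overlap, and the red bar is the list median, from -0.65 for endothelial to 1.40 for macrophage markers.

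Markers of other cells that an aortic preparation could hold gave the following counts. Over all tested genes the knockout mean was higher for 41.7% and lower for 58.3%. The knockout arrays lay wholly above the controls for 16.7% and wholly below for 27.5%. These lists were short, so their counts are only described. Pericyte markers had 5 tested members of 8, 3 higher and 2 lower with a median of 0.32. Cspg4, the NG2 proteoglycan, was the one without overlap between groups and differed by -0.96 (SE 0.38). Mesothelial markers had 6 of 9 members below the filter level, Msln, Upk3b and Wt1 among them. Of the 3 tested, 1 was higher and 2 lower. The keratin gene Krt19 differed by -1.23 (SE 0.14) without overlap. With overlap, Upk1b differed by -2.39 (SE 1.24) and Krt8, another keratin gene, by 0.13 (SE 0.15). The dim Wt1 differed by 0.52 (SE 0.12), with both knockouts above both controls. Of the 7 dendritic cell markers with a row, 3 were tested and 3 were higher, with Cd209a at 0.22 (SE 0.14) and Ccr7 at 0.18 (SE 0.14). The remaining one, Itgax, differed by 1.29 (SE 0.93) with overlap. It read 8.75 on knockout replicate 2 and 5.54 to 6.90 on the other arrays. Adipocyte markers had 3 tested members, all overlapping between groups, and lymphocyte markers had 1, Nkg7, at 0.35 (SE 0.18). Of the 9 smooth muscle markers 3 were higher and 6 lower, with a median of -0.01, and smoothelin (Smtn) differed by -0.55 (SE 0.15) and Myocd, a co-activator of smooth muscle genes, by -0.14 (SE 0.15).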

How the data were processed

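Total RNA (10 ng) was amplified, biotin-labelled and hybridised to Mouse Gene ST 2.1 arrays, per the labels. The deposited table holds log2 values for 41345 rows that the authors made with RMA, as the submitters' processing notes name it. Their range, 1.17 to 12.4, gave the log base. RMA's version, the chip definition and the build were not given in the sources used here. Rows were named through the platform annotation, and the row with the highest mean stood for a gene with several. The 12550 genes with a mean of at least 3.02 were fitted with lmFit and eBayes (limma 3.58.1 in R 4.3.3) for knockout minus control with no covariate and Benjamini-Hochberg adjustment. Standard errors of dim genes come from the fit without a filter. Depth does not apply to arrays; their number limits the precision, and an exact two-sided permutation test of 2 against 2 has 0.333 as its smallest p. Levels of genes were set beside the common filter level, and no difference in level between genes was tested.

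The markers, lists and rules were chosen with earlier results of these data known. All markers are named; of each other list, up to 4 tested genes, taken by size of difference among those whose groups do not overlap; and for the 3 markers with the largest difference, the 3 genes of nearest pattern, predicted genes skipped. Acta2, Mfap5, Igfbp6, Has1, Scara5, Tek, Cldn5, Kdr, Flt1, Vwf, Itgax, Fap, Flii and Npepps are outside this rule. So are Msln, Upk3b, Krt8, Wt1, Gli1, Gli2, Shh, Kit and those named in the closing section. All of these were picked once their values had been seen. Sox10 and Wt1 are each on 2 lists. On simulated data for this comparison with 12550 genes, limma called 5 of 50 genes changed by 1 log2 unit and 38 of 50 changed by 2, with 8 false calls. The simulated noise was independent between arrays, with spreads drawn from the fitted prior, and 50 genes were also changed by 3 and 50 by 4. On the real arrays 0 genes were called, Ptprb at -2.88 (SE 0.16) included, so the simulated shares need not hold for them. Promoter windows come from RefSeq (GRCm38.p6), where 8 of the 10 genes matched. Plots were drawn with matplotlib 3.10.9.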

Additional observations from a re-analysis of the deposited data

How the results depend on the processing

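The 9 alternatives that kept all arrays (array weights, eBayes with trend or with trend and robust estimation, averaged rows per gene, median-centred arrays, quantile normalisation repeated, the dim-gene filter dropped or raised to the 75th percentile, and the title number as a replicate block) and the 4 that left out 1 array all called 0 genes. With the replicate block, limma's smallest adjusted p was 0.0777 and 1527 genes had an unadjusted p under 0.05; without control replicate 1 that number was 975. Deviations of same-numbered arrays correlated at 0.05 over tested genes; whether the numbers mark the pairs of mice was not settled by this. Among the markers, sign changes were limited to Tcf21 without control replicate 1 and to Pi16 (-0.02) without control replicate 2 or knockout replicate 1. With single arrays left out, 5 or 6 of the 9 markers, the 3 dim ones included, had a higher knockout mean. Leaving out single arrays moved the median over these 9 from 0.01 to 0.10. It moved the median of the wider adventitial list from -0.47 to -0.14, of the shared fibroblast list from -0.23 to 0.32, of the progenitor list from -0.42 to -0.15, of the Tcf21 list from -0.60 to -0.20 and of the relatives of the markers from -0.046 to 0.059. With all arrays kept, the median over the 9 markers ran from 0.02 (arrays centred) to 0.05. Over the 6 tested markers it was -0.05 in the main fit. The median of the progenitor list ran from -0.33 to -0.14 (no filter, which adds its dim members) and of the wider adventitial list from -0.40 to -0.28. It ran from -0.43 to -0.37 for the Tcf21 list, from -0.04 to 0.07 for the shared fibroblast list and from -0.03 to 0.03 for the relatives.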

Other observations

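Control replicate 1 stood far above the other arrays for 2 listed genes outside the naming rule. Upk1b, a uroplakin of mesothelium, read 9.24 on it, 5.78 on control replicate 2, and 4.34 and 5.91 on the knockouts. Penk, which encodes proenkephalin and belongs to the wider adventitial list, read 7.10, then 4.80, 4.05 and 4.87. The groups overlapped for both genes. Over all tested genes, 63 were at least 1 log2 unit higher on control replicate 1 than on any other array, against 36 for control replicate 2, 44 for knockout replicate 1 and 99 for knockout replicate 2. Lum, the proteoglycan lumican of fibroblasts, went the other way, at 3.29 on control replicate 1, 5.11 on control replicate 2, and 5.25 and 4.62 on the knockouts. The mean log2 level over the shared fibroblast list was also lowest on control replicate 1, where Cd34 and Dpt were highest. In the same array order it was 6.11, 6.77, 6.73 and 6.28. For the wider adventitial list it was 5.77, 5.84, 5.43 and 5.45.

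Most tested genes of Schwann cells and their neural crest precursors were high on 1 array of each group. Of 6 tested markers, 5 (Cdh19, Foxd3, Erbb3, Ngfr and Sox10) shared the order knockout replicate 2, control replicate 1, knockout replicate 1 and control replicate 2, from high to low. Of all tested genes 3.77% had this order. S100b, the exception, was highest on control replicate 2, at 5.08. Cdh19, a cadherin of Schwann cell precursors, read 6.24 and 4.99 in knockout replicates 2 and 1 and 5.56 and 4.12 in control replicates 1 and 2. Groups overlapped for all 6.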
